A study of Mus musculus with 15 samples.

Results

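The genes described here are the Wnt ligands, their Frizzled receptors and Lrp co-receptors, the secreted Wnt antagonists and 6 intracellular core genes of the pathway, in the mouse hippocampus during the extinction of contextual fear. The choice was made by gene name, with earlier results of these data known. It took all Wnt, Fzd, Sfrp and Dkk names of the array, with Frzb, Wif1, Lrp5, Lrp6, Ctnnb1, Axin1, Axin2, Dvl1, Dvl2 and Apc. This gave 47 of the 27962 gene names on the array, measured by 67 probes, and 45 of them were bright enough to be tested. Secreted Wnt proteins bind Frizzled receptors together with Lrp5 or Lrp6. In the canonical branch this stops the complex of Axin, Apc and its kinases from destroying beta-catenin, which then enters the nucleus and drives target genes, Axin2 among them. Secreted antagonists either bind Wnt proteins (the Sfrp family, Frzb and Wif1) or block the Lrp co-receptors (Dkk1, Dkk2 and Dkk4). In the hippocampus the pathway is known for its part in patterning, in the production of new granule neurons in the dentate gyrus and in synapse formation.

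The samples were hippocampal total RNA from male mice of the inbred strain C57BL/6J, 15 in all, in 3 groups of 5 that the labels call biological replicates, with 1 single-colour Agilent array per sample. ELF mice had received a foot shock in the conditioning box, went back into it unshocked in trials 24 h apart, and were sampled 1 h after the extinction trial at which freezing was low, which was trial 5. E1 mice had received the shock and were sampled 1 h after extinction trial 1, when freezing was high. Control mice were placed in the box without conditioning according to the design text, whereas the sample names call them naive, and ages are not given. Levels below are log2 intensities relative to the 75th percentile of the same array, so a negative value lies below that percentile, and they are given as mean ± SD (n = 5 arrays per group). Differences carry the standard error (SE) of a limma fit over all 15 arrays. A gene was called where its p, adjusted by the Benjamini-Hochberg method across the 26117 genes tested, was under 0.05.

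The 15 arrays lay on 4 glass slides that were only partly shared between groups, and this touches every comparison below. Slide 4 held ELF 1, 2 and 5. Slide 3 held ELF 3 and 4 with E1 4 and 5. Slide 2 held E1 1, 2 and 3 with control 5, and slide 1 held the other 4 controls. The share of spots well above background was 95.8% to 97.2% on slide 4 and 83.5% to 93.1% on slide 3. The defining neuronal markers of the hippocampus were present: all 13 tested, Prox1, Neurod6 and Wfs1 among them, were well above background on all 15 arrays. The array ELF 3 stood apart in Ttr, the main product of choroid plexus epithelium, which was -1.81 there against 3.35 to 4.02 on the other ELF arrays.

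The results turn on 5 genes, whose array probes are printed to show which stretch of each transcript was measured. All probes are 60 bases long, are given 5′ to 3′ and carry the coordinates of mouse build mm7 from the array files. Sfrp1 and Wnt9a had a brighter and a dimmer probe each, and the brighter one was used in the fit.
Sfrp1 brighter probe, chr8:22232957-22233016, plus strand: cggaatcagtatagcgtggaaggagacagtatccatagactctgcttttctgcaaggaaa
Sfrp1 dimmer probe, chr8:22233645-22233704, plus strand: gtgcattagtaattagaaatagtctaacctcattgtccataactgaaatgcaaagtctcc
Wnt9a brighter probe, chr11:59414739-59414798, plus strand: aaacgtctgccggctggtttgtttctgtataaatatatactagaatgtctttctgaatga
Wnt9a dimmer probe, chr11:59412554-59412613, plus strand: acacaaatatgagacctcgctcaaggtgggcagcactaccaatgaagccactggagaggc
Fzd4, chr7:85346032-85346091, plus strand: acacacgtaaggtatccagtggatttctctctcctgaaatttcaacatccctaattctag
Wnt2b, chr3:104739212-104739271, minus strand: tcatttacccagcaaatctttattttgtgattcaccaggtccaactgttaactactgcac
Axin2, chr11:109059707-109059766, plus strand: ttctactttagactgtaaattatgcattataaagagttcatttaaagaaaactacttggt
The 2 Sfrp1 probes start 688 bases apart and the 2 Wnt9a probes 2185 bases apart. The GC content was 45% and 35% for the brighter and dimmer Sfrp1 probe, 35% and 53.3% for those of Wnt9a, 40% for Fzd4, 38.3% for Wnt2b and 25% for Axin2.

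Across the 3 comparisons, 1 of the 45 genes passed the test in 1 comparison. Sfrp1, a secreted antagonist that binds Wnt proteins, fell in ELF mice relative to control mice by 0.82 on the log2 scale (fold 0.568). In E1 against control, 0 of 45 genes were called, beside 0.188% of all genes (0.134% higher and 0.0536% lower), and 9 of 45 (20%) had an unadjusted p under 0.05 beside 13.1% of all genes. Of these, 6 were higher, beside 9.01% of all genes, and 3 lower, beside 4.08%. In ELF against control, 1 of 45 (2.22%) was called, beside 2.1% of all genes and 0.651% called lower, and 11 of 45 (24.4%) had an unadjusted p under 0.05 beside 23%. Of these, 6 were higher, beside 15.6% of all genes, and 5 lower, beside 7.38%. In ELF against E1, 0 of 45 genes were called, beside 0.00766% of all genes, and 6 of 45 (13.3%) had an unadjusted p under 0.05 beside 9.64%. Of these, 2 were higher, beside 5.65% of all genes, and 4 lower, beside 3.99%. Differences were above 0 for 29, 27 and 23 of the 45 genes in the 3 comparisons, beside 58.5%, 64.8% and 60.4% of all genes. The median difference of the 45 genes was 0.09 in E1 against control, 0.07 in ELF against control and 0.00 in ELF against E1, where the medians of all genes were 0.04, 0.10 and 0.05. The share called in ELF against control lay near that of all genes. For the 15 genes with several probes, the 20 probes not used in the fit had the sign of the used probe for 14 in E1 against control, 12 in ELF against control and 11 in ELF against E1. The comparisons of E1 and of ELF with control share the same 5 control arrays.

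**Figure D1:**
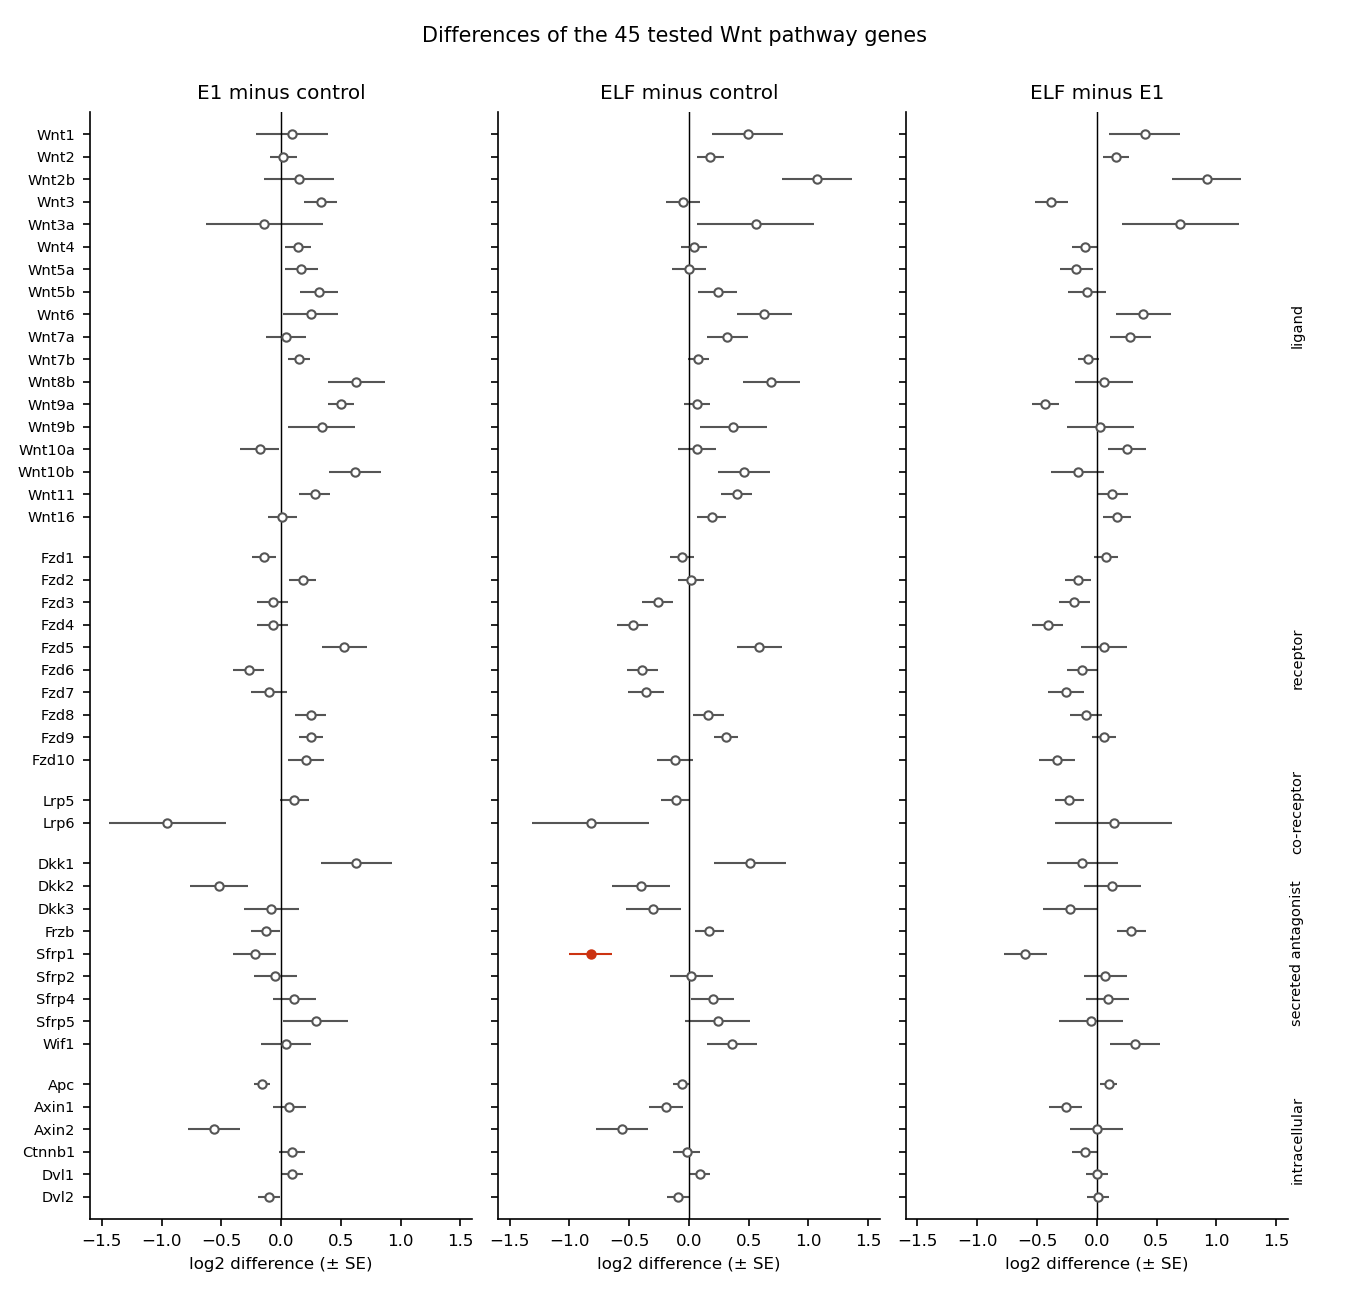
Log2 difference (x axis, with its SE as the bar) of each of the 45 tested genes (y axis, grouped by role) in E1 minus control, ELF minus control and ELF minus E1, from limma over 15 arrays. The filled red point, Sfrp1 in ELF minus control at -0.82, is the only one at an adjusted p under 0.05.

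The ligands had 19 genes on the array, of which 18 were tested. None was called in any of the 3 comparisons. In E1 against control 16 of 18 differences were above 0, with a median of 0.16, and in ELF against control also 16 of 18, with a median of 0.28. In ELF against E1 it was 11 of 18, with a median of 0.10. With the median of each array in place of its 75th percentile, 13 of 18 ligands were above 0 in E1 against control and 12 of 18 in ELF against control, where 49.7% of all genes were above 0 in each. Within slide 2, which holds E1 and control arrays, 7 of 18 ligands were above 0 in E1 1 to 3 against control 5. Their median was -0.05, near the -0.04 of all genes. Within slide 3, 2 of 18 were above 0 in ELF 3 and 4 against E1 4 and 5, with a median of -0.30, where the median of all genes was -0.18. Slide 2 holds a single control array, and no slide holds ELF with control arrays, so ELF against control has no value within a slide. A fit with the slide as a fixed block reaches ELF against control only through E1. Its estimate joins E1 1 to 3 against control 5 on slide 2 with ELF 3 and 4 against E1 4 and 5 on slide 3. Control 5 is thus the only control behind it.

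Wnt9a, a ligand known in joint and blood stem cell development, had the smallest p of the 45 genes in E1 against control. Its brighter probe read -1.01, -1.08, -1.06, -1.14 and -1.36 on E1 arrays 1 to 5, against -1.34, -1.61, -1.90, -1.57 and -1.72 on control arrays 1 to 5. The groups overlapped by 1 pair, E1 5 lying just below control 1. The difference was 0.50 (SE 0.11, limma adjusted p = 0.0726), and within slide 2 it was 0.67. On ELF arrays 1 to 5 the probe read -1.65, -1.33, -1.58, -1.70 and -1.52, which spans -1.70 to -1.33 within or just above the control range of -1.90 to -1.34. ELF minus E1 was -0.43 (SE 0.11, adjusted p = 0.264), and -0.39 within slide 3. The difference from control passed the threshold without control 5 (adjusted p = 0.0417), with quantile normalization (0.0373) and in the authors' deposited table (0.0491). The adjusted p of Wnt9a was 0.859 with the slide as a random block and 1 as a fixed block.

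The dimmer Wnt9a probe gave another pattern. It read -4.14, -3.73, -4.39, -5.08 and -3.79 on ELF arrays 1 to 5, -4.33, -4.59, -4.20, -3.97 and -3.74 on E1 arrays 1 to 5, and -5.39, -5.27, -5.17, -5.01 and -4.20 on control arrays 1 to 5. Control 5, on slide 2, lay among the E1 arrays, and the controls of slide 1 were lower. Its differences were 0.84 (SE 0.27) in E1 against control, 0.78 (SE 0.27) in ELF against control and -0.06 in ELF against E1. Over the whole groups both probes therefore read higher in E1 than in control. Within slide 2 only the brighter probe did, as the dimmer one read -4.33, -4.59 and -4.20 on E1 1 to 3 against -4.20 on control 5. The 2 probes also disagreed on whether ELF lay with E1 or with control.

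**Figure D2:**
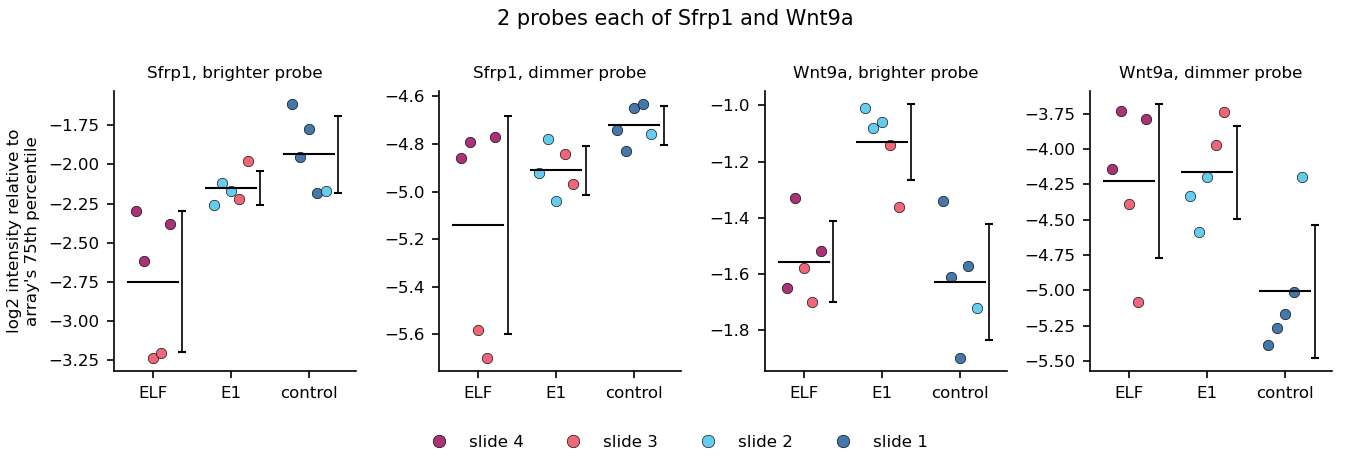
Log2 intensity relative to the array's 75th percentile (y axis) from the brighter and dimmer probe of Sfrp1 and of Wnt9a in ELF, E1 and control (x axis), 1 point per array coloured by slide, with the group mean as a line and its SD as a bar (n = 5). Both Sfrp1 probes were lowest on ELF 3 and ELF 4, at -3.24 and -3.21 and at -5.58 and -5.70, and the Wnt9a probes placed ELF differently.

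Wnt2b, a ligand of the canonical branch known from the cortical hem of the embryo, had the largest difference of the 45 genes. It read -4.19, -3.57, -5.17, -4.38 and -3.94 on ELF arrays 1 to 5, against -4.97, -5.84, -5.54, -5.03 and -5.23 on control arrays 1 to 5. ELF 3 lay within the control range and the other 4 ELF arrays above it. The difference from control was 1.07 (SE 0.29, limma adjusted p = 0.0612), and it passed the threshold without control 5, without ELF 3 or without ELF 4 (adjusted p = 0.0498, 0.0239 and 0.0294). It was smaller with normexp, at 0.62 (adjusted p = 0.0559), and in the authors' deposited table, at 0.59 (adjusted p = 0.0315). A fixed slide block gave 0.95 for Wnt2b (adjusted p = 0.326). On E1 arrays 1 to 5 it read -4.84, -4.86, -5.22, -5.94 and -4.99. ELF minus E1 was 0.92 (SE 0.29, adjusted p = 0.369) and 0.69 within slide 3.

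Wnt8b, a ligand of the developing hippocampal margin, and Wnt10b, a ligand known for restraining fat cell formation, lay at low levels in all groups. Wnt8b read -4.08, -3.71, -4.67, -5.18 and -3.98 on ELF arrays 1 to 5, -4.43, -4.56, -4.54, -4.21 and -4.19 on E1 arrays 1 to 5, and -5.03, -5.31, -5.29, -5 and -4.45 on control arrays 1 to 5. Control 5 again lay with the E1 arrays, and ELF 4 with the controls. The differences were 0.63 (SE 0.24, adjusted p = 0.281) in E1 against control and 0.69 (SE 0.24, adjusted p = 0.122) in ELF against control. Within slide 2 the E1 difference was -0.06, and within slide 3 ELF minus E1 was -0.73. With the slide as a fixed block, which reaches ELF against control through E1 and control 5, Wnt8b turned to -0.79 (adjusted p = 0.128). Its differences from control were also smaller with normexp, at 0.33 in E1 and 0.43 in ELF, and in the authors' deposited table, at 0.34 and 0.38. Wnt10b averaged -4.84 ± 0.47 in ELF, -4.68 ± 0.24 in E1 and -5.29 ± 0.36 in control. Its E1 difference was 0.62 (SE 0.22, adjusted p = 0.239), and -0.09 within slide 2. It was 0.36 with normexp and 0.30 in the authors' deposited table. Within slide 3 its ELF minus E1 difference was -0.85, and Wnt8b and Wnt10b were both called lower in ELF than in E1 with the fixed block.

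Wnt11, a ligand of the noncanonical branch, averaged -2.70 ± 0.17 in ELF, -2.82 ± 0.27 in E1 and -3.10 ± 0.16 in control. Its ELF difference from control was 0.40 (SE 0.13, adjusted p = 0.0973), and -0.43 with the slide as a fixed block (adjusted p = 0.219). Wnt3, which drives dentate granule cell production, averaged -2.85 ± 0.25 in ELF, -2.47 ± 0.28 in E1 and -2.80 ± 0.14 in control. Its E1 difference from control was 0.33 (SE 0.14, adjusted p = 0.351), and its ELF difference from E1 was -0.38 (SE 0.14, adjusted p = 0.438). Within slide 2 E1 minus control was 0.06, and with the slide as a fixed block Wnt3 in ELF against E1 was -0.70 (adjusted p = 0.0356). A dimmer Wnt3 probe gave 0.18 and -0.32 for these comparisons.

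The other ligands are given by their levels. Wnt1, a midbrain patterning ligand, averaged -1.71 ± 0.81 in ELF, -2.10 ± 0.11 in E1 and -2.20 ± 0.27 in control, and it read -1.34, -0.90 and -1.20 on ELF 1, 2 and 5 but -2.27 and -2.84 on ELF 3 and 4. Wnt9b, an inducer of kidney tubules, averaged -1.91 ± 0.73, -1.94 ± 0.29 and -2.28 ± 0.26 in ELF, E1 and control, with the same split between slides 4 and 3. Wnt6 averaged -1.16 ± 0.57 in ELF, -1.55 ± 0.24 in E1 and -1.79 ± 0.29 in control. That probe had no RefSeq match. The second Wnt6 probe, which matched, went the other way against control, with -2.12 ± 0.49 in ELF, -2.45 ± 0.35 in E1 and -1.98 ± 0.59 in control. Wnt3a, the ligand needed for the hippocampus to form in the embryo, averaged -4.78 ± 1.32 in ELF, -5.48 ± 0.54 in E1 and -5.34 ± 0.26 in control, and was well above background on 12 of 15 arrays. Wnt5a, a noncanonical ligand, averaged -4.32 ± 0.31, -4.15 ± 0.12 and -4.32 ± 0.20 in ELF, E1 and control. Wnt5b averaged -1.75 ± 0.36, -1.67 ± 0.12 and -1.99 ± 0.21 in ELF, E1 and control. The dimmer Wnt5b probe averaged -3.90 ± 0.14 in ELF, -3.65 ± 0.20 in E1 and -4.62 ± 0.56 in control. Against control it was higher by 0.97 (SE 0.21) in E1 and by 0.72 (SE 0.21) in ELF. Control 5 read -3.71 there, among the E1 arrays, and the controls of slide 1 read -5.11 to -4.51. Wnt7a and Wnt7b, which act on blood vessels and synapses of the forebrain, averaged -1.19 ± 0.20 and -0.01 ± 0.10 in ELF, -1.47 ± 0.32 and 0.06 ± 0.12 in E1, and -1.51 ± 0.28 and -0.09 ± 0.12 in control.

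Among the remaining ligands, Wnt2 averaged 0.48 ± 0.22, 0.33 ± 0.14 and 0.30 ± 0.08 in ELF, E1 and control. Wnt4 averaged -1.22 ± 0.10, -1.12 ± 0.23 and -1.26 ± 0.14 in ELF, E1 and control. Wnt10a averaged -0.18 ± 0.42 in ELF, -0.43 ± 0.16 in E1 and -0.25 ± 0.10 in control. Wnt16 averaged -3.98 ± 0.25 in ELF, -4.15 ± 0.10 in E1 and -4.17 ± 0.18 in control. Each of these 4 differed between groups by less than the range of the arrays within a group. Wnt8a was well above background on 3 of 15 arrays, all of them ELF, and was not tested. It read -6.76, -5.76, -8.53, -8.09 and -5.10 on ELF arrays 1 to 5, highest on the arrays of slide 4.

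The 10 Frizzled receptors were all tested and none was called. In E1 against control 5 of 10 differences were above 0, with a median of 0.06 where that of all genes was 0.04. In ELF against control 4 of 10 were above 0, with a median of -0.09 where that of all genes was 0.10. At an unadjusted p under 0.05, 3 receptors were lower, beside 7.38% of all genes, and 2 higher, beside 15.6%.

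Fzd4, the receptor that brain endothelium needs for its barrier, was separated between groups. It read -0.94, -0.97, -1.05, -0.83 and -0.87 on ELF arrays 1 to 5, against 0.06, -0.51, -0.52, -0.74 and -0.59 on control arrays 1 to 5. Every ELF array lay below every control and E1 array, and E1 arrays read -0.55, -0.46, -0.50, -0.41 and -0.70. The ELF difference from control was -0.47 (SE 0.13, limma adjusted p = 0.0603) and that from E1 -0.41 (SE 0.13, adjusted p = 0.369). Within slide 3 ELF minus E1 was -0.38. In ELF against control, 3 of 45 genes (6.67%; Fzd4, Sfrp1 and Lrp6) had groups that did not overlap, beside 4.74% of all genes. All 3 were lower in ELF, beside 2.24% of all genes lower and 2.5% higher. In ELF against E1 these were Fzd4 and Sfrp1 (4.44%), both lower in ELF, beside 2.04% of all genes, 0.942% lower and 1.1% higher. The difference from control passed the threshold without control 5 or without ELF 4. With quantile normalization its adjusted p was 0.0323, and 0.0257 in the authors' deposited table. Fzd4 in ELF against control with the slide as a fixed block was -0.30 (adjusted p = 0.596), and as a random block -0.41 (adjusted p = 0.999).

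Fzd6, a receptor of planar cell polarity, read -1.98, -1.75, -2.22, -2.24 and -1.80 on ELF arrays 1 to 5, against -1.20, -1.87, -1.55, -1.62 and -1.79 on control arrays 1 to 5. It averaged -1.88 ± 0.07 in E1. The ELF difference from control was -0.39 (SE 0.13, adjusted p = 0.104), and its adjusted p was 0.0216 with quantile normalization but 0.354 with the slide as a fixed block. The groups overlapped, ELF 2 and 5 lying above control 2.

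Markers of endothelium, the cell type in which Fzd4 is best known, were lower in both ELF and E1 than in control. Their median differences were -0.72 in ELF and -0.55 in E1, where those of all genes were 0.10 and 0.04. Fzd4 differed from control by -0.47 in ELF but by -0.07 (SE 0.13, limma adjusted p = 0.876) in E1. Fzd6 differed by -0.39 in ELF and -0.27 (SE 0.13, adjusted p = 0.4) in E1. Of 16 endothelial markers tested, 15 were below 0 in ELF and 15 in E1 against control. In ELF 9 were called lower, beside 0.651% of all genes, and in E1 3 were, beside 0.0536%. Among them was Kdr, the main VEGF receptor, with -0.99 (SE 0.16, limma adjusted p = 0.02) in ELF and -0.87 (SE 0.16, adjusted p = 0.0488) in E1. The summed linear level of the 16 markers was 12.8 to 17.1 on ELF arrays, 14.4 to 17.1 on E1 arrays and 18 to 30.6 on control arrays, and all 16 were well above background on all arrays. Between ELF and E1 these sums overlapped and 0 of 16 markers were called by limma, but 11 of 16 were below 0, with a median of -0.18 where that of all genes was 0.05. All 4 with an unadjusted p under 0.05 were lower in ELF, beside 3.99% of all genes. The part of endothelial content in the Fzd4 and Fzd6 values was not tested. In RNA from whole tissue, fewer cells of a type and less RNA per cell cannot be told apart.

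Fzd5 and Fzd9 lay on the higher side. Fzd5, a receptor of eye and gut development, read -2.96, -2.64, -3.20, -3.66 and -2.84 on ELF arrays 1 to 5, -3.27, -3.32, -3.20, -3.12 and -2.67 on E1 arrays 1 to 5, and -3.71, -3.90, -3.80, -3.59 and -3.24 on control arrays 1 to 5. Control 5 lay within the E1 range, as it did for Wnt8b. Its differences were 0.53 (SE 0.19, adjusted p = 0.234) in E1 against control, 0.59 (SE 0.19, adjusted p = 0.0951) in ELF against control. Within slide 2 E1 minus control was -0.03, and within slide 3 ELF minus E1 was -0.54. Fzd5 turned to -0.56 in ELF against control when the slide was a fixed block (adjusted p = 0.239). A dimmer probe under the name Fzd5 gave 0.34 (SE 0.43) in E1 and 0.35 (SE 0.43) in ELF against control. By its coordinates it lies on the opposite strand to the Fzd5 probe used, and it had no RefSeq match. It was well above background on 3 of 5 E1 and 4 of 5 ELF arrays. Fzd9, a receptor known in hippocampal granule neurons, read -0.94, -0.92, -1.01, -1.04 and -0.91 on E1 arrays 1 to 5, against -1.11, -1.31, -1.24, -1.19 and -1.19 on control arrays 1 to 5. These groups did not overlap. The E1 difference was 0.25 (SE 0.10, adjusted p = 0.301) and 0.23 within slide 2, and the ELF difference from control was 0.31 (SE 0.10, adjusted p = 0.0985). In E1 against control, 2 of 45 genes (Fzd9 higher, Apc lower) did not overlap, beside 3.71% of all genes, 2.08% higher and 1.63% lower. The probes used for Fzd9 and Apc had no RefSeq match.

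Fzd10 averaged -2.73 ± 0.20 in ELF, -2.40 ± 0.35 in E1 and -2.61 ± 0.14 in control, and ELF minus E1 was -0.33 (SE 0.15, adjusted p = 0.517). Its dimmer probe gave 0.02 for that comparison. Fzd7, a receptor of stem cell maintenance, averaged -2.20 ± 0.20 in ELF, -1.94 ± 0.22 in E1 and -1.84 ± 0.31 in control, but its dimmer probe lay higher in ELF (-3.55 ± 0.39) and in E1 (-3.44 ± 0.27) than in control (-3.90 ± 0.22). Fzd3, needed for axon guidance, averaged -2.99 ± 0.24 in ELF, -2.80 ± 0.18 in E1 and -2.73 ± 0.16 in control. Its dimmer probe was instead highest in ELF, with -3.25 ± 0.12 in ELF, -3.45 ± 0.09 in E1 and -3.35 ± 0.12 in control. Fzd1 averaged -0.34 ± 0.14, -0.42 ± 0.12 and -0.29 ± 0.17 in ELF, E1 and control. Fzd2 averaged -0.99 ± 0.16, -0.83 ± 0.19 and -1.01 ± 0.15 in ELF, E1 and control. Fzd8 averaged -3.23 ± 0.28, -3.14 ± 0.13 and -3.39 ± 0.20 in ELF, E1 and control. Its dimmer probe was instead highest in control, with -4.74 ± 0.09 in ELF, -4.77 ± 0.08 in E1 and -4.50 ± 0.32 in control.

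The co-receptors were not called. Lrp6 read -3.16, -4.28, -3.53, -3.37 and -3.14 on ELF arrays 1 to 5, against -2.24, -2.36, -2.67, -3.11 and -3.03 on control arrays 1 to 5. Its groups did not overlap, but ELF 5 and control 4 were nearly equal. On E1 arrays it read -3.19, -2.95, -3.08, -2.95 and -6.00, and was not well above background on 1 E1 array. The ELF difference from control was -0.82, with an SE of 0.49 that this array widened for all groups. Lrp5 averaged -2.29 ± 0.11 in ELF, -2.06 ± 0.14 in E1 and -2.18 ± 0.28 in control.

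Sfrp1 was the single gene called. Its brighter probe read -2.30, -2.62, -3.24, -3.21 and -2.38 on ELF arrays 1 to 5, against -1.61, -1.95, -1.77, -2.18 and -2.17 on control arrays 1 to 5. Every ELF array lay below every control array, and ELF 3 and 4 lay lowest. The difference was -0.82 (SE 0.18, limma adjusted p = 0.0431). On E1 arrays 1 to 5 it read -2.26, -2.12, -2.17, -2.22 and -1.98, all above every ELF array. ELF minus E1 was -0.60 (SE 0.18, adjusted p = 0.369), and within slide 3 it was -1.12. E1 minus control was -0.22 (SE 0.18, adjusted p = 0.665) and -0.01 within slide 2.

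The call was close to its threshold. Sfrp1 was lower in ELF than in control in all 15 fits that left out 1 array, by 0.69 to 0.93, and was called in 4 of them (those without control 5, ELF 1, ELF 4 or ELF 5), with adjusted p between 0.0186 and 0.133. With the slide as a fixed block the ELF difference from control was -1.14 (adjusted p = 0.0752) and that from E1 -1.12 (adjusted p = 0.0107). With the slide as a random block it was -0.91 (adjusted p = 0.999, where 0 of all genes were called).

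The dimmer Sfrp1 probe read -4.86, -4.79, -5.58, -5.70 and -4.77 on ELF arrays 1 to 5, -4.92, -4.78, -5.04, -4.84 and -4.97 on E1 arrays 1 to 5, and -4.74, -4.83, -4.65, -4.63 and -4.76 on control arrays 1 to 5. It was low on ELF 3 and 4, while ELF 1, 2 and 5, between -4.86 and -4.77, overlapped the E1 and control arrays. Its ELF difference from control was -0.42 (SE 0.17), which is smaller than that of the brighter probe, and the mean over both probes gave -0.62 (adjusted p = 0.0651). Choroid plexus markers were lower on the ELF arrays as well. The summed linear level of 17 markers was 67.1, 70.8, 10.3, 61.4 and 61.8 on ELF arrays 1 to 5. It was 74.9 to 93.6 on E1 arrays and 79.2 to 107 on control arrays. In ELF against control 0 of 17 were called, and 12 were lower at an unadjusted p under 0.05, beside 7.38% of all genes. All 17 were below 0, with a median of -1.15 where that of all genes was 0.10. Every ELF sum lay below every E1 and control sum. ELF 3 and ELF 4, with brighter-probe Sfrp1 values of -3.24 and -3.21, had sums of 10.3 and 61.4. ELF 5, with an Sfrp1 value of -2.38, had a sum of 61.8. The part of choroid plexus or endothelial content in the Sfrp1 value was not tested.

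**Figure D3:**
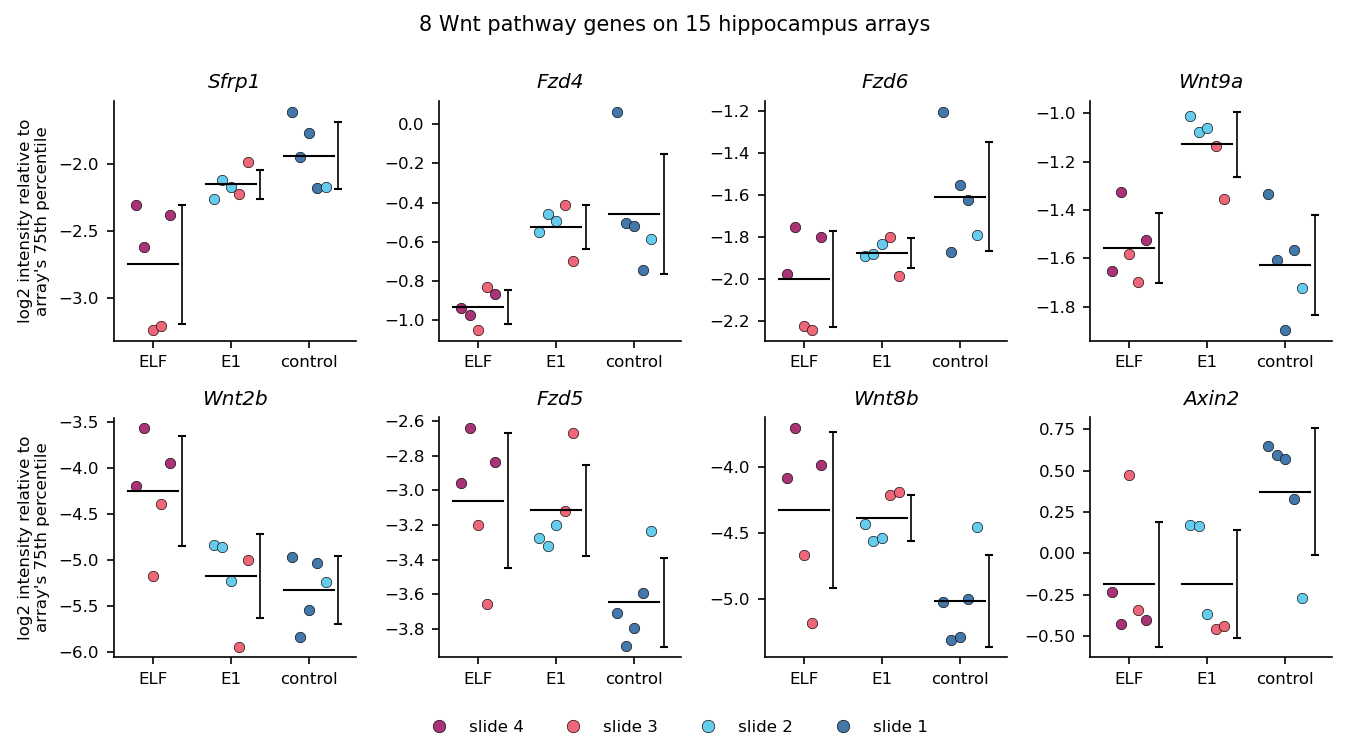
Log2 intensity relative to the array's 75th percentile (y axis) of 8 genes in ELF, E1 and control (x axis), 1 point per array coloured by slide, with the group mean as a line and its SD as a bar (n = 5). Sfrp1 and Fzd4 were lower on every ELF array than on every control array, whereas for Fzd5, Wnt8b and Axin2 control 5 of slide 2 lay among the E1 arrays.

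The other secreted antagonists were not called. Frzb, a Wnt-binding antagonist of cartilage, averaged -0.03 ± 0.26 in ELF, -0.32 ± 0.08 in E1 and -0.20 ± 0.20 in control, and ELF minus E1 was 0.29 (SE 0.12, adjusted p = 0.483) and 0.33 within slide 3. Dkk3, which is abundant in hippocampal neurons and is the divergent member of its family, averaged 2.57 ± 0.62 in ELF, 2.80 ± 0.20 in E1 and 2.87 ± 0.11 in control, with 1.49 on ELF 2 and 2.70 to 3.04 on the other ELF arrays. Dkk1, which blocks the Lrp co-receptors, averaged -4.99 ± 0.69 in ELF, -4.87 ± 0.22 in E1 and -5.50 ± 0.51 in control. Its dimmer probe averaged -5.27 ± 0.93 in ELF, -5.64 ± 0.20 in E1 and -6.27 ± 0.22 in control. Dkk2 averaged -4.84 ± 0.58 in ELF, -4.97 ± 0.37 in E1 and -4.45 ± 0.14 in control. Sfrp2 averaged -2.65 ± 0.39, -2.72 ± 0.15 and -2.67 ± 0.28 in ELF, E1 and control, Sfrp4 averaged -2.04 ± 0.45, -2.14 ± 0.19 and -2.24 ± 0.16 in ELF, E1 and control, and Sfrp5 averaged -2.80 ± 0.74, -2.75 ± 0.15 and -3.04 ± 0.20 in ELF, E1 and control. Wif1, which binds Wnt proteins directly, averaged -3.20 ± 0.50 in ELF, -3.52 ± 0.18 in E1 and -3.56 ± 0.31 in control. Dkk4 was below background on all 15 arrays and was not tested.

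Among the 6 intracellular genes none was called. Axin2, the scaffold that is itself a target of beta-catenin and a usual readout of the canonical branch, read -0.24, -0.42, 0.48, -0.34 and -0.40 on ELF arrays 1 to 5, 0.17, 0.17, -0.36, -0.46 and -0.44 on E1 arrays 1 to 5, and 0.65, 0.59, 0.57, 0.33 and -0.27 on control arrays 1 to 5. The 4 controls of slide 1 were high together with ELF 3, and control 5 lay among the E1 arrays. The differences were -0.56 (SE 0.22, adjusted p = 0.15) in ELF against control, -0.56 (SE 0.22, adjusted p = 0.283) in E1 against control and 0.00 (SE 0.22, adjusted p = 0.999) in ELF against E1. Within slide 2 E1 minus control was 0.26, and within slide 3 ELF minus E1 was 0.51. Axin2 turned to 0.78 in ELF against control with a fixed slide block (adjusted p = 0.22). Without control 5 the ELF difference from control passed the threshold (adjusted p = 0.0424).

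Ctnnb1, which encodes beta-catenin, averaged 3.38 ± 0.25 in ELF, 3.49 ± 0.14 in E1 and 3.40 ± 0.06 in control. Its differences were 0.09 (SE 0.11, adjusted p = 0.796) in E1 against control, -0.02 (SE 0.11, adjusted p = 0.944) in ELF against control and -0.10 (SE 0.11, adjusted p = 0.82) in ELF against E1. Its dimmer probes gave 0.05 and -0.14, 0.02 and -0.24, and -0.03 and -0.10 for these comparisons. Apc, the tumour suppressor of the destruction complex, read 2.57, 2.58, 2.54, 2.62 and 2.54 on E1 arrays 1 to 5, against 2.74, 2.72, 2.72, 2.84 and 2.63 on control arrays 1 to 5. The groups were separate but close, with a difference of -0.16 (SE 0.07, adjusted p = 0.357) and -0.06 within slide 2. It averaged 2.67 ± 0.11 in ELF. The 5 dimmer Apc probes gave -0.19 to 0.04 in E1 against control. Axin1, the constitutive scaffold, averaged -1.32 ± 0.32 in ELF, -1.06 ± 0.15 in E1 and -1.13 ± 0.13 in control, with -0.26 (SE 0.14, adjusted p = 0.557) in ELF against E1. Of the Dishevelled genes, which relay the signal from Frizzled, Dvl1 averaged 1.79 ± 0.17, 1.78 ± 0.09 and 1.69 ± 0.09 in ELF, E1 and control, and Dvl2 averaged -1.70 ± 0.17, -1.71 ± 0.10 and -1.61 ± 0.03 in ELF, E1 and control.

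**Figure D4:**
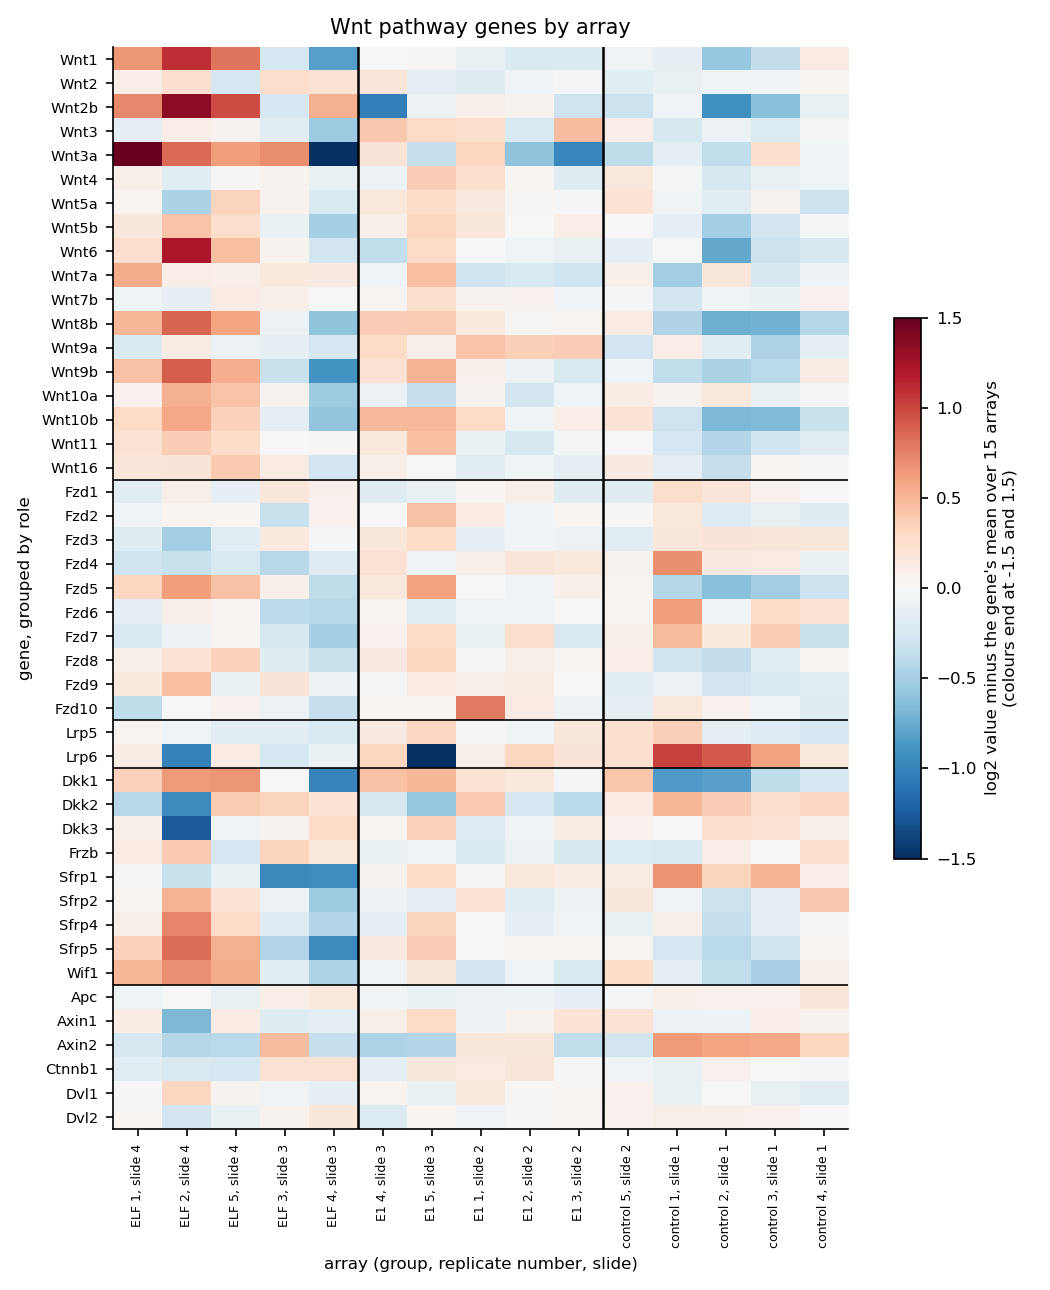
Deviation of each of the 45 genes (rows, grouped by role) from its own mean over 15 arrays (colour, log2 scale, ending at -1.5 and 1.5) on each array (columns, by group and slide). Many ligands and antagonists are above their mean on ELF 1, 2 and 5 of slide 4 and below it on ELF 4 of slide 3, while Sfrp1 is lowest on ELF 3 and 4 and Axin2 is highest on controls 1 to 3 of slide 1.

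Within the ELF group, the arrays of the 2 slides differed for many of these genes. For 23 of 45 genes (51.1%) all 3 arrays of slide 4 lay above both arrays of slide 3, beside 46.7% of all genes, and for 4 of 45 (8.89%) all 3 lay below, beside 10.1%. Among the 18 ligands 11 lay above and 0 below. Without ELF 4, the array with the lowest share of spots above background (83.5%), 12 of 45 genes were called in ELF against control (10 higher, 2 lower) beside 19.6% of all genes. These were Dkk1, Fzd5, Fzd9, Wnt1, Wnt10b, Wnt11, Wnt2b, Wnt3a, Wnt6 and Wnt8b on the higher side and Fzd4 and Sfrp1 on the lower side. Without control 5, the control on the slide of the E1 arrays, 5 were called in ELF against control (11.1%), beside 8.08% of all genes, and Wnt9a alone in E1 against control (2.22%), beside 4.28% of all genes. With the slide as a fixed block 8 of 45 genes were called in ELF against E1, all lower in ELF, beside 19.3% of all genes. These were Wnt3, Wnt8b, Wnt9b, Wnt10b, Fzd8, Dkk1, Sfrp1 and Sfrp5. That comparison rests on 2 arrays per group.

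Replicate numbers of E1 and control arrays went together in the data, so the fit with the number as a block was also read. With all 15 arrays it called 0 of 45 genes in E1 against control. With the 10 E1 and control arrays alone, a fit chosen after seeing the data, it called 10 of 45 (8 higher, 2 lower) beside 12% of all genes. The called genes were Wnt5b, Wnt8b, Wnt9a, Wnt10b, Wnt11, Fzd5, Dkk1, Sfrp5, Dkk2 and Axin2. In each numbered pair from 1 to 4 the control was from slide 1 and the E1 array from slide 2 or 3. In pair 5 the control was from slide 2 and the E1 array from slide 3. No pair shared a slide, so slide and group cannot be told apart within any pair.

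The wider pathway lists held no called gene in any of the 3 comparisons. These lists cover 23 tested extracellular modulators, 30 intracellular components, 21 components of the noncanonical branches and 20 target genes. Their median differences were 0.06, -0.04, -0.02 and -0.09 in E1 against control and 0.08, -0.01, -0.06 and 0.03 in ELF against control. The 3 genes with the smallest p-values of each list are named next. In ELF against control the extracellular ones were Sostdc1, a secreted modulator that choroid plexus also makes (-1.27, SE 0.38, adjusted p = 0.0839), Ror1, a Wnt receptor kinase (-0.32, adjusted p = 0.126), and Tmem67 (-0.25, adjusted p = 0.129). The intracellular ones were Bcl9l, a beta-catenin co-activator (0.32, SE 0.09, adjusted p = 0.071), Nkd2, a Dishevelled-binding inhibitor (0.34, adjusted p = 0.122), and Lef1, a nuclear partner of beta-catenin (-0.47, adjusted p = 0.134). Among noncanonical components they were Nfatc1, a calcium-dependent factor (-0.42, SE 0.11, adjusted p = 0.0596), and the planar polarity genes Celsr1 (-0.33, adjusted p = 0.125) and Celsr3 (-0.17, adjusted p = 0.19). Among targets they were Ppard (1.09, SE 0.36, adjusted p = 0.104), Ccnd1, which encodes cyclin D1 (0.25, adjusted p = 0.132), and Lef1 again.

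In E1 against control the extracellular genes were Ror1 (-0.37, SE 0.11, adjusted p = 0.169), Rnf43, which removes Frizzled from the membrane (-0.28, SE 0.10, adjusted p = 0.24), and Tmem67 (-0.23, adjusted p = 0.278). The intracellular ones were Tcf7l2, a nuclear partner of beta-catenin that is abundant in thalamus (0.48, SE 0.16, adjusted p = 0.21), Csnk1d (-0.26, adjusted p = 0.32) and Nkd1 (-0.25, adjusted p = 0.41). Nfatc1 (-0.31, SE 0.11, adjusted p = 0.247), Daam1 (-0.18, adjusted p = 0.375) and Celsr3 (-0.12, adjusted p = 0.505) led the noncanonical list. Rnf43, Axin2 and Ppard (0.80, adjusted p = 0.369) led the targets. Beside Tcf7l2, the summed level of 18 thalamus and habenula markers was 20.6 to 26 on E1 arrays and 19.4 to 26 on control arrays. Of these markers 15 of 18 were above 0 in E1 against control, with a median of 0.27 where that of all genes was 0.04. At an unadjusted p under 0.05, 9 were higher, beside 9.01% of all genes, and 1 lower, beside 4.08%. Ramp3 was the 1 marker called (0.86, SE 0.15, adjusted p = 0.0351). The part of such tissue in the Tcf7l2 value was not tested.

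In ELF against E1 the smallest adjusted p of these lists was that of Nkd2 (0.46, SE 0.12, adjusted p = 0.264). Prox1, a granule neuron factor and reported target, gave 0.43 (SE 0.15, adjusted p = 0.414), and Lgr5, an R-spondin receptor, gave -0.37 (SE 0.13, adjusted p = 0.42).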

How the data were processed

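Hippocampal RNA of 15 mice was measured on 15 arrays. Per the labels' protocols, RNA of high integrity was amplified and labelled with Cy3. Per the file headers, Agilent Feature Extraction 9.5.3.1 gave each of 45018 spots a background-subtracted processed intensity, the mean and background intensity, and flags of 0 or 1 (score) for spots above background, saturated or outlying. A table of those spots, read as log2 values, was also deposited (array medians 8.68 to 8.92). Its columns correlated with log2 mean intensity at 0.996 to 0.9991, which shows a logarithmic form but cannot fix the base. How the table was normalized is not stated by the header or labels, and the submitters' processing notes name limma.

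Control spots (1639) and outlier spots were left out. Log2 processed intensity was set relative to each array's 75th percentile (1445 to 2929), and spots were averaged to 41174 probes. Probes well above background on at least 5 arrays were kept, with the brightest probe per gene name, which left 26117 genes. Groups came from the labels. Comparisons used limma (version 3.58.1; R 4.3.3), two-sided, with no covariate and Benjamini-Hochberg adjustment over all genes, and the scripts were tested on simulated data. Signal over background and the number of arrays limit the precision, and no precision from counts applies. Names are those of the array design. By accession 59 of the 67 probes matched RefSeq, and 46 of 47 genes had a matching probe. The probes used for Fzd9, Apc and Wnt6 had no match.

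Slides were read from the array identifiers. Deviations of arrays with the same number correlated across genes at 0.14 to 0.30 for E1 and control, so those numbers were taken as pairs from the data; for ELF and control they lay between -0.43 and 0.31, and for ELF and E1 between -0.40 and 0.17. The alternatives were normexp, quantile and median normalization, the deposited table, other filters, probe means, slide and replicate blocks, fewer arrays, and leaving out each array. Each comparison names the called members, the 8 smallest p-values, and Ctnnb1 and Axin2. The 5 genes with printed probes, and those followed further, were chosen with their values known. The members and lists were chosen with earlier results of these data known. P-values measure the spread between these samples, and those of the main fit take the arrays of a group as independent. The random block fit put the correlation of arrays within a slide at 0.467, which the main fit leaves out.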

Additional observations from a re-analysis of the deposited data

Results flagged for a closer look

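In 9 of the 135 sets of 5 arrays (45 genes in 3 groups), 1 array lay far from the other 4 by Dixon's test, and chance flags about 1 in 20 such sets. In the ELF group these were Axin2 on ELF 3 at 0.48, Dkk3 on ELF 2 at 1.49, Fzd2 on ELF 3 at -1.27 and Wnt7a on ELF 1 at -0.83. In the E1 group they were Fzd10 on E1 1 at -1.80, Sfrp2 on E1 1 at -2.46, Lrp6 on E1 5 at -6.00 and Sfrp4 on E1 5 at -1.81. In the control group it was Fzd3 on control 5 at -3.01.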

How the results depend on the processing

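In the main analysis 49 genes were called in E1 against control, 548 in ELF against control and 2 in ELF against E1, of which 0, 1 and 0 were among the 45. In that order of comparisons, genes called numbered 429, 1712 and 5 with quantile normalization, 299, 1204 and 0 with the median shift, 244, 1588 and 11 in the authors' deposited table, and 0 in ELF against E1 with normexp and 4 with probes above background on all 15 arrays. With the slide as a fixed block they numbered 4, 84 and 5042, and the median differences of the 45 genes were -0.04, -0.37 and -0.30. With the slide as a random block they numbered 0, 0 and 0 (588, 1158 and 2577 at an unadjusted p under 0.05), with the replicate block 12, 215 and 0, with only the 10 arrays of each pair of groups 32, 0 and 0, and with both of these (chosen after seeing the data) 3141, 0 and 0.

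Of the 45 genes, quantile normalization called 2 in E1 and 5 in ELF against control, the authors' deposited values 1 and 4, the median shift 3 in ELF, and probes above background on all arrays 2 in ELF. Sfrp1 was no longer called, leaving 0 in ELF against control, with the mean over probes, the slide as a fixed or random block, the replicate block, the 10 arrays, and the 10 arrays with the replicate block. The last called 10 in E1 against control, and the fixed slide block called 8 in ELF against E1. Leaving out 1 array gave 0 to 1, 0 to 12 and 0 to 0 called genes of the 45, medians of 0.05 to 0.12, 0.03 to 0.13 and -0.06 to 0.06, and 8 to 1117, 0 to 5123 and 0 to 11 called genes of all.

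Directions changed mainly with the slide. With it as a fixed block E1 minus control was -0.03 for Fzd5, -0.09 for Wnt10b, -0.06 for Wnt8b and 0.26 for Axin2, as within slide 2. ELF minus control was -0.56 for Fzd5, -0.43 for Wnt11, -0.79 for Wnt8b, 0.37 for Ctnnb1 and 0.78 for Axin2. These values were reached through E1, with control 5 as the only control behind them. ELF minus E1 with the fixed block was 0.21 for Ctnnb1 and 0.51 for Axin2, as within slide 3. With the random block Ctnnb1 was 0.11 in ELF against control and 0.04 against E1, and Axin2 0.16 against E1. Ctnnb1 and Axin2 differences near 0 also changed sign: Ctnnb1 in E1 against control was 0 with the mean over probes, and in ELF against control 0, 0.01, 0.03 and 0.04 without control 2, ELF 1, ELF 2 or ELF 5, the range over single arrays left out being -0.08 to 0.04. Axin2 in ELF against E1 was 0.02 with normexp, 0.09 without E1 1 or E1 2, and 0.01, 0.06, 0.04 and 0.05 without ELF 1, 2, 4 or 5, with a range of -0.17 to 0.09. The cause of these changes was not tested. The number of arrays, 5 per group, and signal over background limit the precision.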
